A study of Mus musculus with 8 samples.

Results

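A set of 6 genes of steroid hormone action was followed in mouse follicular B cells. They were the receptor genes Esr1 and Nr3c1, the glucocorticoid-activating enzyme gene Hsd11b1, and the glucocorticoid-induced genes Tsc22d3, Fkbp5 and Per1. The 6 were picked by name from 43629 genes in the deposited count table, after Esr1 had been seen to be higher and Hsd11b1 lower in the comparison described here. The values of that comparison are therefore a description for Esr1 and Hsd11b1 and carry no test. All 6 passed the filter on low counts that left 13035 genes for testing. The samples were 8 RNA-seq libraries of sorted spleen follicular B cells, 4 per group. The group named GFP-ZFP36L1 has the genotype Rosa26GFPZFP36L1 CD23cre/+, and the control group has Rosa26GFPZFP36L1 without Cre, so the Rosa26 allele is shared by both. Cre expression follows CD23, which B cells turn on as they mature, and Cre and the protein it switches on cannot be told apart in this design. The labels give no animal age, sex or strain for either group and do not tell how many animals gave the libraries, and the p-values thus rest on library-to-library spread, which may be technical.

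Steroid hormones cross the cell membrane and bind receptors that are themselves transcription factors. Without hormone the glucocorticoid receptor is held in the cytoplasm by an HSP90 chaperone complex, and on binding it moves to the nucleus, where it raises or lowers transcription of target genes. In lymphocytes glucocorticoids restrain activation, alter migration and can trigger cell death, while estrogen acting through estrogen receptor alpha shapes B cell maturation and antibody production. ZFP36L1 is an RNA-binding protein that attaches to AU-rich sequences, best known as UAUUUAU, in the 3' untranslated region of messenger RNAs and speeds their decay.

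Library totals ran from 38947758 to 48328512 counts in the group labelled GFP-ZFP36L1 and from 40976668 to 51024233 in the control group. Levels are counts per 1000000 (CPM) on library sizes scaled by TMM factors. Zfp36l1 itself had 471, 447, 437 and 402 CPM in GFP-ZFP36L1 replicates 1 to 4, and 599, 523, 532 and 535 CPM in control replicates 1 to 4. It was lower in the libraries labelled GFP-ZFP36L1, which goes against a label of added Zfp36l1. The counts do not separate the transgene from the endogenous gene, and every direction below goes by the labels alone. The B cell genes Cd79a, Ms4a1 and Cd79b each had 1327 CPM or more in every library, while Cd93, whose protein the labels list as positive in the gate, had 8.87 to 14.6 CPM in the group labelled GFP-ZFP36L1 and 8.40 to 13.2 CPM in the controls.

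Esr1 (ENSMUSG00000019768, chromosome 10, 4611593 to 5005614, plus strand of GRCm38) encodes estrogen receptor alpha. It had 9.16, 11.0, 10.8 and 13.2 CPM in GFP-ZFP36L1 replicates 1 to 4, against 5.97, 5.15, 6.54 and 6.66 CPM in control replicates 1 to 4. The lowest library labelled GFP-ZFP36L1 lay above the highest control, and the means were 11.0 ± 1.64 and 6.08 ± 0.689 CPM (SD, n = 4 each). These levels rest on 398 to 540 counts per library in the group labelled GFP-ZFP36L1 and 250 to 275 in the controls. The ratio of the means was 1.81, and the log2 fold change was 0.86 ± 0.12 (SE). Replicate 4 of the GFP-ZFP36L1 group was the farthest from the controls and replicate 1 the nearest. Without replicate 4 the log2 fold change was 0.77, and without replicate 1 it was 0.95.

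Nr3c1 (ENSMUSG00000024431, chromosome 18, 39410545 to 39519421, minus strand) encodes the glucocorticoid receptor. Its level was 264, 279, 234 and 239 CPM in GFP-ZFP36L1 replicates 1 to 4, against 236, 253, 232 and 228 CPM in the controls. The groups overlapped, with means of 254 ± 21.2 and 237 ± 10.9 CPM (SD, n = 4 each). The log2 fold change was 0.10 ± 0.07 (SE), and the adjusted p in edgeR was 0.490. Adjusted p values here and below come from the quasi-likelihood test of that tool, with the Benjamini-Hochberg method applied over all 13035 tested genes.

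**Figure D1:**
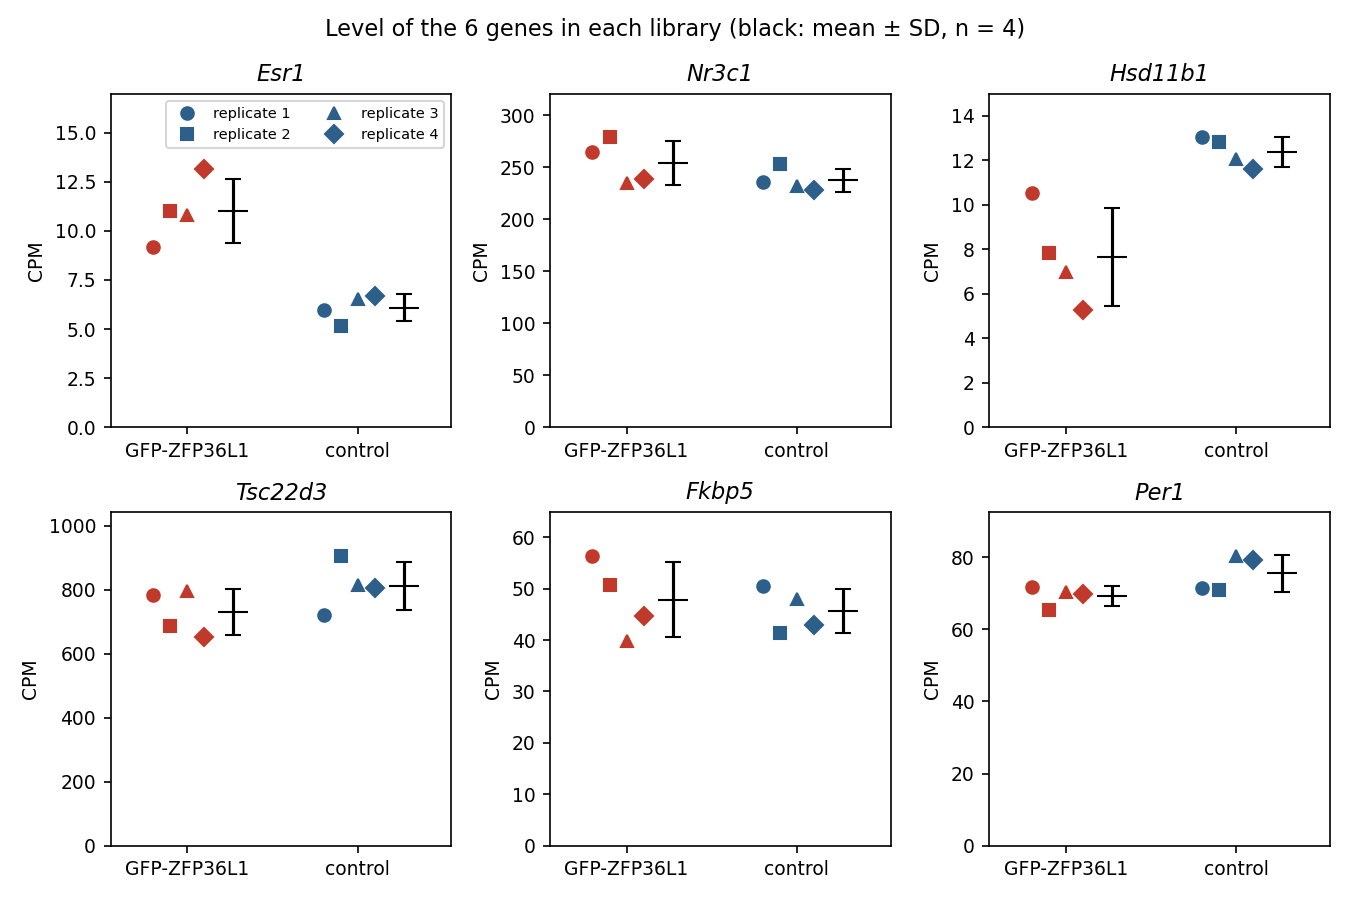
Level of each of the 6 genes in CPM (vertical axes, starting at 0) in the 4 libraries labelled GFP-ZFP36L1 (red, left) and the 4 control libraries (blue, right), with 1 symbol shape per replicate and the mean ± SD in black. Esr1 lies at 9.16 CPM or more in the group labelled GFP-ZFP36L1 and at 6.66 CPM or less in the controls, Hsd11b1 at 10.5 CPM or less and at 11.6 CPM or more, and the other 4 genes overlap.

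Of the 12 genes on the list of steroid and related receptors, 6 were tested, 1 was higher, which is Esr1 itself, 0 were lower, and 5 did not pass. DESeq2 and limma voom also called 1 higher and 0 lower. Over all genes DESeq2 called 494 higher and 382 lower and limma voom 562 and 491, against 238 and 169 in edgeR. The rise of Esr1 was known when the set was chosen, so its calls carry no test. An unadjusted p under 0.05 was found for 2, Esr1 among them, against 2260 of all 13035 tested genes. Nr3c2, the mineralocorticoid receptor gene, had 1.82 to 2.63 CPM in the group labelled GFP-ZFP36L1 and 1.53 to 1.92 CPM in the controls, a log2 fold change of 0.35 ± 0.16 (SE). The membrane-associated progesterone receptor component Pgrmc1 had 42.3 ± 3.44 and 41.5 ± 2.52 CPM, and Esrra, an orphan relative of the estrogen receptors, had 49.8 ± 2.50 and 50.2 ± 3.71 CPM (SD, GFP-ZFP36L1 then control, n = 4 each). The progesterone receptor gene Pgr and the orphan receptor gene Esrrb had 0 counts in every library, which allows up to 3 counts, or 0.0603 to 0.0737 CPM depending on the library. Esr2, the gene for estrogen receptor beta, did not exceed 0.0460 CPM in the group labelled GFP-ZFP36L1 or 0.0239 CPM in the controls. Of Esr1, Esr2 and Pgr, Esr1 alone was above this counting limit in all 8 libraries.

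Among 39 other nuclear receptor genes, 15 were tested, 2 rose, 0 fell and 13 did not pass, with a median log2 fold change of 0.01. At an unadjusted p under 0.05 there were 5, against 2260 of all 13035 tested genes. DESeq2 called 1 lower and limma voom 0. Over all tested genes the median was -0.01, and 1.83% were called higher and 1.3% lower. Rxra, a partner with which many nuclear receptors pair on DNA, had 1.08, 1.52, 2.03 and 2.39 CPM in GFP-ZFP36L1 replicates 1 to 4 and 0.644, 0.825, 0.785 and 0.934 CPM in the controls. Its log2 fold change was 1.13 ± 0.25 (SE), at an edgeR adjusted p of 0.0348. Nr2f6, an orphan receptor known as a repressor in lymphocytes, had 7.63 ± 0.713 CPM in the group labelled GFP-ZFP36L1 and 5.11 ± 0.766 CPM in the controls (SD, n = 4 each), at an edgeR adjusted p of 0.0319. Neither group overlapped the other for either gene. Both calls were lost when any library other than GFP-ZFP36L1 replicate 1 was left out, with adjusted p of up to 0.112 for Rxra and 0.0952 for Nr2f6 in edgeR.

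Hsd11b1 (ENSMUSG00000016194, chromosome 1, 193221634 to 193264075, minus strand) encodes the enzyme that turns inactive 11-keto glucocorticoids into active corticosterone inside the cell. It had 10.5, 7.82, 6.99 and 5.26 CPM in GFP-ZFP36L1 replicates 1 to 4, against 13.0, 12.8, 12.04 and 11.6 CPM in control replicates 1 to 4. The groups did not overlap, and the means were 7.65 ± 2.19 and 12.4 ± 0.670 CPM (SD, n = 4 each). The ratio of the means was 0.618 and the log2 fold change -0.69 ± 0.16 (SE). Counts per library ran from 216 to 457 in the group labelled GFP-ZFP36L1 and from 472 to 637 in the controls. The spread was uneven, with a coefficient of variation of 28.7% in the group labelled GFP-ZFP36L1 and 5.42% in the controls. Without GFP-ZFP36L1 replicate 1, the library nearest the controls, the log2 fold change was -0.88, and without replicate 4, the farthest, it was -0.55.

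The locus of Hsd11b1 is shared. Lamb3, a laminin chain gene on the opposite strand, spans all 42442 bp of Hsd11b1 but shares 0 exonic bases with it. Lamb3 had 31.2, 31.7, 29.7 and 33.1 CPM in GFP-ZFP36L1 replicates 1 to 4 and 34.6, 38.8, 44.2 and 46.0 CPM in the controls. It fell, with a log2 fold change of -0.38 ± 0.08 (SE) and an edgeR adjusted p of 0.0362. Also overlapping Hsd11b1, with 0 shared exonic bases, were 4930570N18Rik on the opposite strand (4575 bp) and Gm38118 on the same strand (2222 bp). Their log2 fold changes were -0.39 ± 0.17 and -0.30 ± 0.30 (SE), at edgeR adjusted p of 0.246 and 0.665. The kit named in the labels keeps strand, but no source used here gives the strand setting of the authors' counting. The part of reads from Lamb3, 4930570N18Rik or Gm38118 in the Hsd11b1 values was not tested.

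Macrophages also express Hsd11b1, so markers of myeloid cells were read beside it. The summed level of 12 myeloid markers was 8.01 to 9.82 CPM in the group labelled GFP-ZFP36L1 and 10.3 to 11.4 CPM in the controls, without overlap. Of the 7 tested, 0 passed in either direction in edgeR, 2 were positive and 5 negative, with a median log2 fold change of -0.24. At an unadjusted p under 0.05 there were 2, Adgre1 and Vcam1, against 2260 of all 13035 tested genes. DESeq2 and limma voom each called 0 higher and 1 lower. Adgre1, the gene for the macrophage protein F4/80, had 2.33, 2.18, 1.48 and 0.926 CPM in GFP-ZFP36L1 replicates 1 to 4, against 3.63, 3.78, 2.66 and 2.78 CPM in the controls (edgeR adjusted p 0.0815). Lyz2, the abundant lysozyme gene of macrophages, did not exceed 0.828 CPM in the group labelled GFP-ZFP36L1 or 0.904 CPM in the controls, and Elane had 0 counts in every library. In these bulk libraries fewer cells of a type and less RNA per cell cannot be told apart, and the part of myeloid RNA in the Hsd11b1 values was not tested.

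Of 28 genes of steroid metabolism in the table, 19 were tested, 0 rose, and 18 did not pass. The remaining 1, called lower, was Hsd11b1, whose fall was known when the set was chosen. At an unadjusted p under 0.05 there were 4, against 2260 of all 13035 tested genes. DESeq2 called 0 higher and limma voom 1. H6pd, the enzyme that supplies Hsd11b1 with its reduced cofactor in the endoplasmic reticulum, had 20.8, 20.6, 24.4 and 25.3 CPM in the group labelled GFP-ZFP36L1 and 18.3, 17.9, 18.1 and 21.005 CPM in the controls. Its groups overlapped, and the edgeR adjusted p was 0.115. Of the genes that make steroids from cholesterol, Cyp17a1, Cyp21a1 and Hsd3b1 had 0 counts in every library.

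Tsc22d3, Fkbp5 and Per1 are textbook targets that the glucocorticoid receptor switches on. Tsc22d3 (ENSMUSG00000031431, chromosome X, 140539528 to 140600659, minus strand) encodes GILZ, a leucine zipper protein that restrains inflammatory transcription factors. It had 784, 688, 797 and 652 CPM in GFP-ZFP36L1 replicates 1 to 4, against 721, 907, 815 and 805 CPM in the controls. The groups overlapped, since control replicate 1 lay below GFP-ZFP36L1 replicates 1 and 3. The log2 fold change was -0.15 ± 0.09 (SE), at an edgeR adjusted p of 0.414.

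Fkbp5 (ENSMUSG00000024222, chromosome 17, 28399094 to 28517527, minus strand) encodes a co-chaperone that binds HSP90 and lowers the affinity of the glucocorticoid receptor for hormone, closing a feedback loop. Its level was 56.5, 50.6, 39.7 and 44.8 CPM in GFP-ZFP36L1 replicates 1 to 4, against 50.6, 41.4, 47.9 and 42.9 CPM in the controls. The libraries labelled GFP-ZFP36L1 held both the highest and the lowest of the 8 values. The log2 fold change was 0.07 ± 0.10 (SE), and the edgeR adjusted p was 0.789. It turned to -0.01 without GFP-ZFP36L1 replicate 1.

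Per1 (ENSMUSG00000020893, chromosome 11, 69095217 to 69109960, plus strand) encodes a repressor of the circadian clock that glucocorticoids also induce. It had 71.6, 65.3, 70.4 and 69.7 CPM in GFP-ZFP36L1 replicates 1 to 4, against 71.4, 70.8, 80.4 and 79.3 CPM in the controls. Control replicates 3 and 4 lay above the rest, and replicates 1 and 2 overlapped the GFP-ZFP36L1 group. The log2 fold change was -0.12 ± 0.06 (SE), at an edgeR adjusted p of 0.291.

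Across the 6 genes, 2 were called at an adjusted p under 0.05, namely the pair by which the set had been chosen, where 3.12% of all tested genes were called. The groups did not overlap for the same pair, where 11.2% of all tested genes did not overlap, 6.24% with the group labelled GFP-ZFP36L1 higher and 4.98% with it lower. Nothing is read from these counts, since that contrast chose the genes. Hsd11b1 missed the threshold with no filter and without GFP-ZFP36L1 replicate 2 or 3 or any 1 of the controls. The other 4 genes passed in 0 of 16 alternative analyses. In the authors' deposited table the log2 fold changes were 0.66 for Esr1 and -0.46 for Hsd11b1. For Nr3c1, Tsc22d3, Fkbp5 and Per1 the authors' deposited table gave 0.09, -0.13, 0.06 and -0.11. Signs in the authors' deposited table matched those computed here in 99.4% of 13035 genes. Both come from the same libraries, so this match is no independent support.

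**Figure D2:**
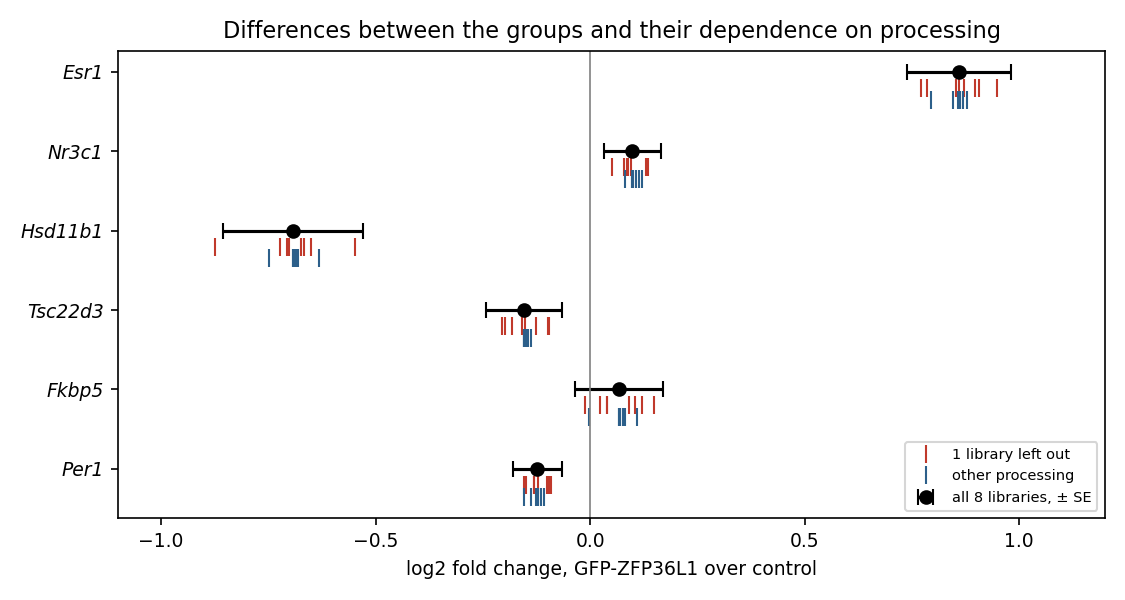
Log2 fold change of GFP-ZFP36L1 over control (horizontal axis) for the 6 genes, as the estimate from all 8 libraries ± SE (black), the 8 estimates with 1 library left out (red ticks) and the 8 under other processing (blue ticks). Esr1 runs from 0.77 to 0.95 and Hsd11b1 from -0.88 to -0.55 when 1 library is left out, and Fkbp5 is the gene whose ticks cross 0.

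The site that ZFP36L1 binds was looked for in the members' 3' untranslated regions, taken from GENCODE mouse release 21 on GRCm38 and searched as TATTTAT on the sense strand. Fkbp5 was the sole member with the heptamer in its longest annotated region of 1953 nt, and it held 5 copies. Of 10978 tested genes with an annotated region, 29.6% had 1 or more copies and 0.610% had 5 or more. The sites are shown because they hold the motif that the protein named in the labels is known to bind. Capitals mark the heptamers, which overlap in windows 2 and 3. The capitals start at nucleotides 23, 58 and 360 of the region.
Fkbp5 window 1: tttttatttttTATTTATtttttattttt
Fkbp5 window 2: tttaagagtTATTTATTTATaaataccta
Fkbp5 window 3: aaaaagagtTATTTATTTATtatatgtaa
The Fkbp5 values by library are those given above, and whether these sites bear on them was not tested.

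The longest regions of Esr1 (4191 nt), Nr3c1 (3937 nt), Hsd11b1 (377 nt), Tsc22d3 (1340 nt) and Per1 (1120 nt) held 0 heptamers. Esr1 and Per1 each had 1 in a shorter region of another annotated protein-coding transcript, of 1022 nt for Esr1 and 589 nt for Per1, where 32.2% of the tested genes had 1 or more in any annotated region.
Esr1, shorter region: ccacttcattgTATTTATctttttccttg
Per1, shorter region: ggggctgcactTATTTATttgggagagac
The shorter motif AUUUA, which 70.3% of the tested genes with an annotated region hold, occurred 8 times in the longest region of Esr1, 10 times in that of Nr3c1, 5 times in Fkbp5, 1 time in Tsc22d3 and 0 times in Hsd11b1 and Per1. Among the tested genes 11.1% held 8 or more and 6.90% held 10 or more. Transcripts with different regions were not separated, since counting was by gene.

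Promoters of Esr1, Hsd11b1, Tsc22d3, Fkbp5 and Per1 were read from RefSeq (GRCm38.p6, 250 bases before to 50 after each start site, 9 windows in all). The full palindromic glucocorticoid response element and the full palindromic estrogen response element, searched on both strands, were in 0 of the 9 windows, and were present in 0.00913% and 0.0700% of all 32851 promoters. The shorter element TGTTCT, searched on both strands, was in 1 of the 9, and in 19.0% of all promoters. It lay 185 bases before the most distal of 3 start sites of Tsc22d3, on the minus strand. The window shown, with TGTTCT in capitals, spans chrX:140600690-140600719.
Tsc22d3 promoter: ccgcattcgacaTGTTCTaagttctgagac

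Levels of different genes were set side by side per kb of exon. In the controls Tsc22d3 had 187 ± 17.5 CPM per kb, Nr3c1 30.9 ± 1.42, Per1 13.4 ± 0.907, Fkbp5 4.83 ± 0.452, Hsd11b1 2.91 ± 0.158 and Esr1 0.445 ± 0.0505 CPM per kb (SD, n = 4). Among 12926 tested genes with a known exon length, Tsc22d3 held rank 225, Nr3c1 rank 1663 and Esr1 rank 11195 by this level. Each gene lay above the next in all 4 controls without overlap, with the smallest step from Fkbp5 to Hsd11b1, a ratio of 1.66. For each of the 5 steps an exact sign-flip permutation test over the 4 control libraries, two-sided, gave p = 0.13, the smallest that n = 4 allows. The order was taken from these same libraries and held in all 4, which fixed this p, so nothing is read from it. The order was the same in the group labelled GFP-ZFP36L1, where Esr1 reached 0.807 ± 0.120 and Hsd11b1 1.80 ± 0.516 CPM per kb. Hsd11b1 over Esr1 was then a ratio of 2.23 in the group labelled GFP-ZFP36L1 and 6.54 in the controls. The choice of these 2 genes by that contrast fixed the direction of this change, and nothing is read from it.

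**Figure D3:**
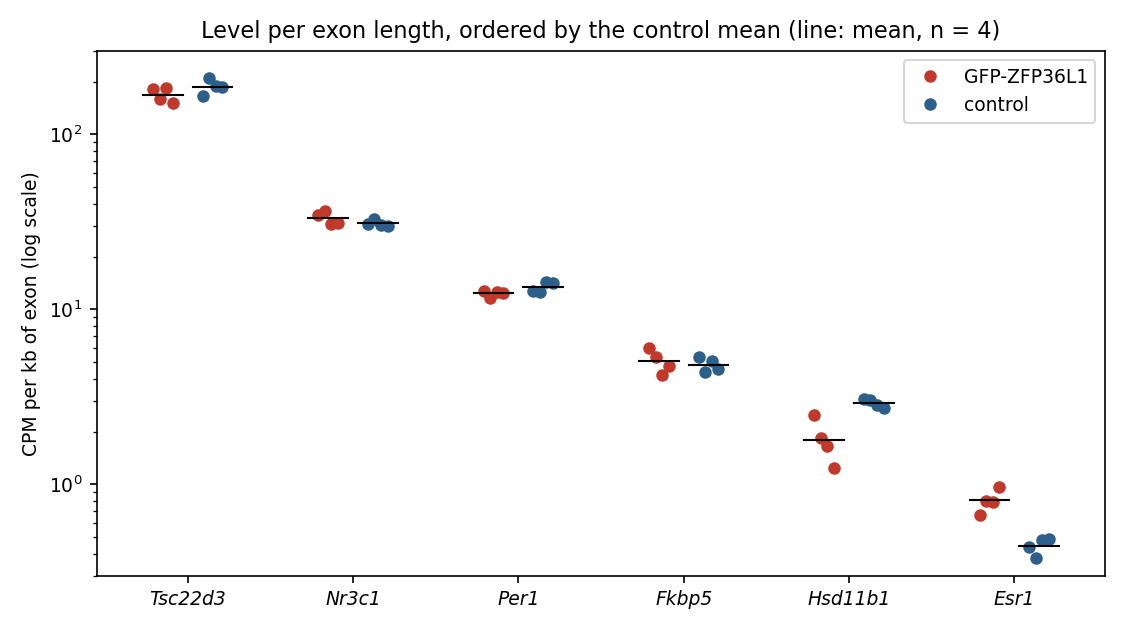
Level per kb of exon (vertical axis, log scale) of the 6 genes, ordered by the control mean, in the 4 libraries labelled GFP-ZFP36L1 (red, left of each pair) and the 4 control libraries (blue), with means as lines. Tsc22d3 stands highest at 168 and 187 CPM per kb, Esr1 lowest at 0.807 and 0.445 CPM per kb, and the distance between Hsd11b1 and Esr1 is smaller in the group labelled GFP-ZFP36L1.

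The wider pathway was read through 9 lists. Outside the 6 genes the lists held 139 tested genes, of which 3 rose and 2 fell. This is 3.60% of them, against 3.12% of all tested genes. Their median log2 fold change was 0.01, against -0.01 over all tested genes.

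Of 34 genes listed as glucocorticoid-induced, 25 were tested, 1 rose, 1 fell and 23 did not pass, with a median log2 fold change of -0.05 and 16 of the 25 negative. At an unadjusted p under 0.05 there were 7, against 2260 of all 13035 tested genes. DESeq2 and limma voom each called 1 higher. The count lower was 1 in DESeq2, 4 in limma voom, 3 with a linear term for title number and 3 without GFP-ZFP36L1 replicate 1. Over all genes the same analyses called 382, 491, 507 and 412 lower, against 169 in edgeR with all 8 libraries. Sgk1, a kinase that regulates ion channels, fell, at 24.3, 18.1, 20.6 and 15.3 CPM in GFP-ZFP36L1 replicates 1 to 4 against 27.3, 29.5, 26.1 and 29.5 CPM in the controls. Its log2 fold change was -0.52 ± 0.12 (SE), and its edgeR adjusted p 0.0402. Rhob, a small GTPase of endosome traffic, rose, at 19.8, 15.0, 24.3 and 23.3 CPM against 13.0, 13.1, 12.8 and 13.2 CPM in the controls, at an edgeR adjusted p of 0.0231. The controls of Rhob were nearly level while the libraries labelled GFP-ZFP36L1 were spread out. Sgk1 lost its call when any control or GFP-ZFP36L1 replicate 2 or 3 was dropped, and Rhob when any control or GFP-ZFP36L1 replicate 3 was dropped, at adjusted p of up to 0.117 and 0.0802 in edgeR.

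Of 24 genes listed as lowered by glucocorticoids, 17 were tested, 0 rose, 1 fell and 16 did not pass, with a median log2 fold change of -0.02. At an unadjusted p under 0.05 there were 8, against 2260 of all 13035 tested genes. DESeq2 called 0 higher and 1 lower, and limma voom 1 higher and 2 lower. A linear term for title number gave 1 higher and 2 lower, and leaving out GFP-ZFP36L1 replicate 1 gave 0 higher and 2 lower. Over all genes the same fits gave 523 higher and 507 lower, and 536 higher and 412 lower. The member that fell was the cytokine gene Tnf, at 14.3 ± 1.14 CPM in the group labelled GFP-ZFP36L1 and 19.5 ± 2.19 CPM in the controls (SD, n = 4 each), with a log2 fold change of -0.44 ± 0.09 (SE). Its edgeR adjusted p was 0.0288, and up to 0.0968 when a library other than GFP-ZFP36L1 replicate 1 or control replicate 2 was left out. The immediate early genes Fos and Jun of this list, named after their values were seen, did not pass but were uneven within the group labelled GFP-ZFP36L1. Fos had 8.84, 8.48, 30.9 and 46.9 CPM in GFP-ZFP36L1 replicates 1 to 4, against 10.2 to 15.1 CPM in the controls. Jun had 39.1, 41.4, 69.7 and 74.5 CPM in GFP-ZFP36L1 replicates 1 to 4, against 33.2 to 41.0 CPM in the controls, so replicates 3 and 4 were high for both genes.

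The HSP90 machinery that holds steroid receptors ready for hormone had 17 members, all tested, of which 0 passed in either direction in edgeR. At an unadjusted p under 0.05 there was 1, against 2260 of all 13035 tested genes. It was Ppp5c, a phosphatase of the receptor complex, with a log2 fold change of -0.16 ± 0.05 (SE). DESeq2 and limma voom each called Ppp5c lower. The median log2 fold change was 0.13, with 12 of the 17 positive. Summed over the list, levels ran from 3745 to 6976 CPM in the group labelled GFP-ZFP36L1 and from 3873 to 6521 CPM in the controls, so the groups overlapped widely. Hspa1b, an inducible heat shock protein gene, had 49.3, 72.5, 107 and 34.3 CPM in GFP-ZFP36L1 replicates 1 to 4 and 50.4, 84.1, 29.4 and 25.3 CPM in the controls. Hsp90aa1, the inducible HSP90 gene, had 495 ± 168 CPM in the group labelled GFP-ZFP36L1 and 403 ± 150 CPM in the controls (SD, n = 4 each). By replicate 1 to 4 it had 527, 702, 456 and 297 CPM in GFP-ZFP36L1 and 458, 590, 276 and 289 CPM in the controls. Replicates 1 and 2 were thus above 3 and 4 in both groups, as also for Hspa8, Dnaja1 and Stip1. Hspa1b differed, with GFP-ZFP36L1 replicate 3 the highest. The cause of this shared spread was not tested.

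The 19 tested coregulators, coactivators and corepressors that receptors recruit to DNA, lay close to 0, with a median log2 fold change of 0.01. Of these 0 passed in either direction in edgeR, DESeq2 or limma voom. An unadjusted p under 0.05 was found for 1, against 2260 of all 13035 tested genes. That gene was Phb2, a prohibitin that represses estrogen receptor activity, with a log2 fold change of -0.14 ± 0.06 (SE).

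Among 29 genes in the table listed as estrogen-responsive, 18 were tested, 0 passed in either direction in edgeR, and the median log2 fold change was -0.02. Of the 18, 7 were positive and 11 negative. Summed over the list, levels ran from 3521 to 3796 CPM in the group labelled GFP-ZFP36L1 and from 4013 to 4100 CPM in the controls. The sums did not overlap, and Cd22 alone made up 1695 to 1847 and 1977 to 2149 CPM of them. At an unadjusted p under 0.05 there were 6, against 2260 of all 13035 tested genes. DESeq2 called 1 higher and 1 lower, and limma voom called 1 higher and 2 lower, Cd22 among those lower in both. Cd22, an inhibitory coreceptor of B cells, had the smallest p, at 1806, 1695, 1740 and 1847 CPM in GFP-ZFP36L1 replicates 1 to 4 against 1977, 2065, 2149 and 2128 CPM in the controls. The groups of Cd22 did not overlap, and its edgeR adjusted p was 0.0934. The classical estrogen target Greb1 had 0 counts in all but 1 library, and Pgr had 0 in all 8.

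Of 17 tested circadian clock genes, 0 passed in either direction in edgeR, and 2 had an unadjusted p under 0.05, against 2260 of all 13035 tested genes. DESeq2 called 0 while limma voom called 1 lower, Arntl. A linear term for title number gave 1 higher and 0 lower, and leaving out GFP-ZFP36L1 replicate 1 gave 0 higher and 1 lower. Arntl, the gene for the activator BMAL1, had 37.5, 33.3, 30.7 and 32.8 CPM in GFP-ZFP36L1 replicates 1 to 4 and 37.7, 37.8, 39.7 and 37.8 CPM in the controls, at an edgeR adjusted p of 0.141. The labels give no time of day for the sampling.

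**Figure D4:**
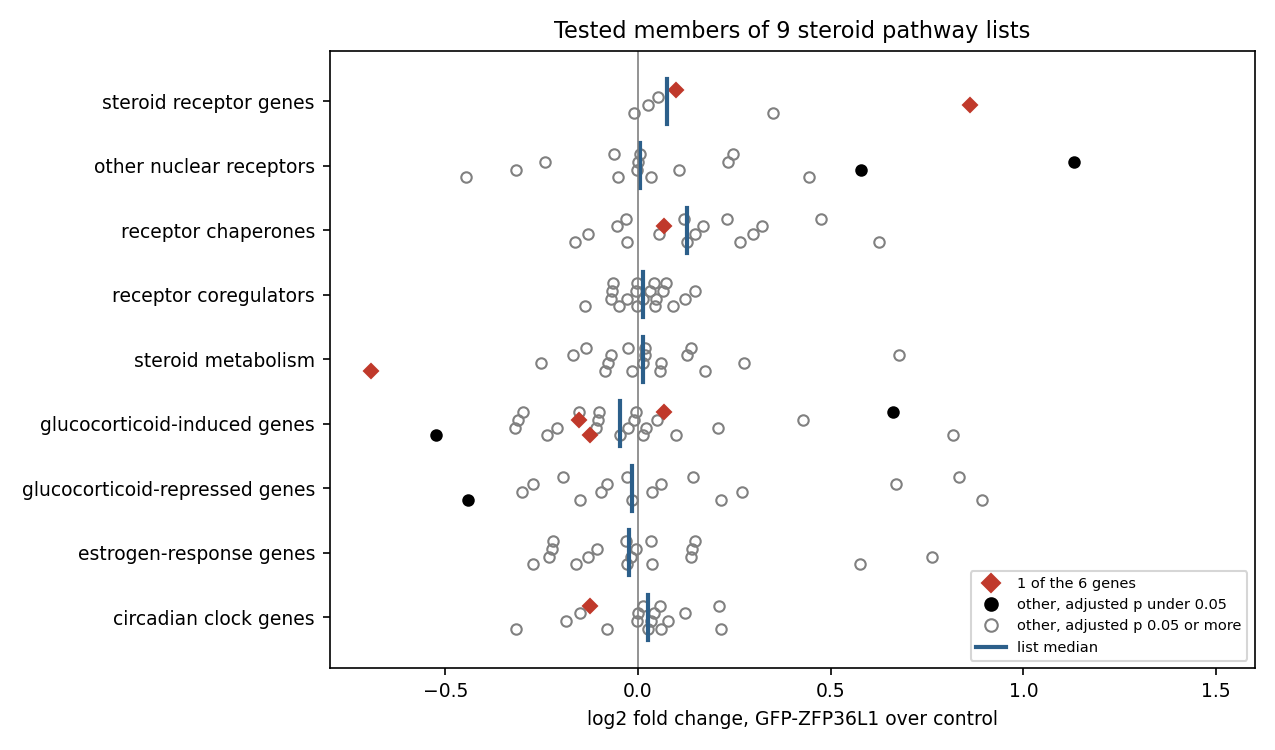
Log2 fold change of GFP-ZFP36L1 over control (horizontal axis) of the tested genes of 9 pathway lists (rows), with the 6 genes as red diamonds, other genes past the threshold as filled circles, the rest as open circles and list medians as blue bars. List medians lie between -0.05 and 0.13, the diamonds farthest from 0 are Esr1 and Hsd11b1, by which the set was chosen, and Rxra, Nr2f6, Rhob, Sgk1 and Tnf are the filled circles.

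Markers of other cell types were read beside these lists. Of 9 T cell markers summing to 33.8 to 34.8 CPM in the group labelled GFP-ZFP36L1 and 31.8 to 34.9 CPM in the controls, the kinase gene Lck made up nearly all, at 33.5 CPM or more and 31.4 CPM or more. The T cell genes Cd3e, Cd3g, Cd4 and Thy1 did not exceed 0.0487 CPM in any library, and of 6 natural killer cell markers Gzma, Gzmb, Ncr1 and Nkg7 had 0 counts in all 8. The natural killer list summed to 2.16 to 3.83 CPM in the group labelled GFP-ZFP36L1 and 2.12 to 2.71 CPM in the controls. Plasma cell markers summed to 265 to 318 CPM in the group labelled GFP-ZFP36L1 and 252 to 302 CPM in the controls, most of it Mzb1 and Xbp1, while the plasma cell receptor gene Tnfrsf17 had 0 counts in every library. Summed levels ran from 5.59 to 6.76 CPM in the group labelled GFP-ZFP36L1 and 4.55 to 6.78 CPM in the controls for dendritic cell markers, and from 6.52 to 15.7 and 6.82 to 19.4 CPM for red cell and platelet markers. In the T cell, natural killer, dendritic, red cell and platelet, and plasma cell lists 0 members passed in either direction in edgeR, where 2 had an unadjusted p under 0.05, both in the plasma cell list. DESeq2 called 1 plasma cell marker lower, and limma voom called 0 in these lists. Of 10 B cell markers 2 fell in edgeR, Pax5 and Ighd, where 1.3% of all tested genes were called lower. DESeq2 and limma voom each called 4 lower, where they called 382 and 491 lower over all genes, against 169 in edgeR. Of these markers 8 were negative, 5 had an unadjusted p under 0.05, 5 did not overlap between groups, and the median log2 fold change was -0.19. Of all 13035 tested genes, 2260 had an unadjusted p under 0.05. Groups did not overlap for 11.2% of all tested genes, with GFP-ZFP36L1 lower in 4.98%. Their summed level was 13877 to 16108 CPM in the group labelled GFP-ZFP36L1 and 16020 to 17353 CPM in the controls. Of 2 tested stromal markers 1 fell in edgeR, Pecam1, which B cells also express, and it made up nearly all of the stromal sum of 215 to 250 CPM in the group labelled GFP-ZFP36L1 and 267 to 289 CPM in the controls. The stromal genes Ccl19, Col3a1, Pdgfra and Pdpn had 0 counts in every library. The part of the B cell marker difference in the values of the 6 genes was not tested.

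The genes whose profile over the 8 libraries was most like each member were found by the root mean square difference between standardized log2 CPM profiles, over 8837 other genes of at least 5 CPM. For Esr1 these were Decr1, a mitochondrial fatty acid oxidation enzyme, Fam167a and the activin receptor gene Acvr2a, at differences of 0.131, 0.146 and 0.156. Decr1 had 23.7 ± 2.89 CPM in the group labelled GFP-ZFP36L1 and 15.5 ± 1.12 CPM in the controls (SD, n = 4 each). For Hsd11b1 they were the sorting nexin gene Snx9, the interleukin 4 receptor gene Il4ra and the receptor kinase gene Grk2, at 0.108, 0.119 and 0.119. Il4ra had 358 ± 42.1 CPM in the group labelled GFP-ZFP36L1 and 434 ± 16.2 CPM in the controls (SD, n = 4 each). Decr1 and Il4ra were picked for likeness to members that the contrast chose. Their group differences are therefore built in, and nothing is read from them.

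For the members whose groups overlapped the nearest profiles were farther off. Esr1 and Hsd11b1 had been chosen for their difference between the groups, so nothing is read from this contrast. They were Smc2 (0.243), Ttc9c (0.249) and Zfp748 (0.314) for Nr3c1, Pcif1 (0.367), Itsn1 (0.373) and Adam9 (0.389) for Tsc22d3, Ddx10 (0.232), Ube3c (0.380) and Mtmr4 (0.395) for Fkbp5, and Med16 (0.231), Foxp4 (0.285) and Fam169b (0.296) for Per1. These likeness values are descriptions over 8 libraries and carry no test.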

How the data were processed

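RNA-seq libraries of sorted follicular B cells, 4 labelled GFP-ZFP36L1 and 4 control, were analysed from the raw counts per gene that the authors deposited. Per the submitters' processing notes the tools were TopHat2 2.0.12, HTSeq, DESeq2 1.10.1 and Trim Galore, and the build GRCm38. The authors' deposited table of log2 fold changes and p-values was used only where it is named. Symbols were found for 42548 of 43629 gene IDs. Groups follow the genotype labels.

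Counts were tested with edgeR 4.0.16 in R 4.3.3 (filterByExpr, TMM factors, robust quasi-likelihood test, group as the only term), with Benjamini-Hochberg adjustment over 13035 genes and a threshold of 0.05. The script was tested on simulated data. Alternatives were DESeq2 1.42.0, limma 3.58.1 voom with quality weights, RLE or upper-quartile factors, no filter, 1 CPM in 4 libraries, immunoglobulin segments removed, the title number as a linear term, and each library left out. CPM use TMM-scaled library sizes, and levels per kb use the exon union of GENCODE mouse release 21. Floors of 3 counts cover counting error only.

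The members and lists were chosen with earlier results of these data known, so adjusted p values of the other 4 members and of list genes are no independent support. From each pathway list the called genes were named, at most the 4 of smallest p, or the 1 of smallest p where none was called, and for each member the 3 genes of most similar profile. Genes named beyond this rule were chosen after their values were seen. Marker lists covered B, T, myeloid, dendritic, natural killer, plasma, red cell and platelet, and stromal cells.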

Additional observations from a re-analysis of the deposited data

How the results depend on the processing

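The sample titles alternate control and GFP-ZFP36L1 by number, but no label pairs neighbouring titles. No paired analysis was therefore run, and title number was fitted as a linear term instead. Over all genes, 238 were called higher and 169 lower. DESeq2 called 494 higher and 382 lower, limma voom 562 and 491, and the fit with a linear term for title number 523 and 507. Leaving out 1 library gave 52 to 536 higher and 27 to 412 lower, the fewest without control replicate 3 and the most without GFP-ZFP36L1 replicate 1. The cause was not tested. Fkbp5 had a log2 fold change of -0.0019 with limma voom and -0.012 without GFP-ZFP36L1 replicate 1, against 0.07 from all 8 libraries, and up to 0.15 without replicate 3 of that group. Nr3c1, Tsc22d3 and Per1 kept their sign in 16 of 16 alternatives. The order of levels per kb was the same with the longest transcript as length and without each control.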
